A study of Mus musculus with 36 samples.

Results

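The 40 genes described here carry glucose into the cell and use its carbon. They comprise 3 glucose transporters, 9 enzymes of upper glycolysis, 6 of lower glycolysis, 4 genes that make or move lactate, 7 of pyruvate dehydrogenase and its kinases, 4 PFKFB enzymes, 6 enzymes of the pentose phosphate pathway, and Txnip, an inhibitor of glucose uptake. They were picked by gene symbol, and all 40 were found among the 57126 gene IDs of the primordial germ cell (PGC) libraries and the 56262 gene IDs of the gonad libraries.

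The study asked how diabetes in the pregnant mouse, termed intrauterine hyperglycemia (IUHG), affects germ cells of the fetus. The IUHG dams were given the β-cell toxin streptozotocin (STZ) on day 3.5 of pregnancy at a dose of 120 mg/kg, and only dams whose blood glucose exceeded 14 mM on day 6.5 were kept. The control groups came from pregnant mice without STZ-induced diabetes. RNA was sequenced in 36 libraries that formed 12 groups of 3, all labelled wild type. The 6 gonad libraries, control and IUHG, were labelled as female gonads at E13.5 (E stands for embryonic day), each pooled over several pairs of gonads. The other 30 libraries were PGCs in 10 groups, control and IUHG for each of E12.5, both sexes at E13.5 and both sexes at E16.5. PGCs came from matings with males that carry Oct4-EGFP, a reporter in which Oct4 regulatory sequence drives green fluorescent protein in germ cells, and EGFP-positive cells pooled over many fetuses were sorted. The label of sex at E12.5 is not determined, so each stage comparison from E12.5 sets cells of unrecorded sex against 1 sex. In the IUHG comparison at E12.5 both groups are of unrecorded sex, and their mix of sexes may differ.

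Glucose enters through GLUT transporters and hexokinase traps it as glucose 6-phosphate, which glycolysis splits into pyruvate and the pentose phosphate pathway turns into NADPH and ribose. Lactate dehydrogenase converts pyruvate to lactate, and the pyruvate dehydrogenase complex, which is shut by the PDK kinases, passes it to the mitochondria as acetyl-CoA. Mouse PGCs are known to change their energy metabolism as they develop, and over the stages sampled female cells enter meiosis while male cells enter mitotic arrest. Several steps have more than 1 isozyme, such as Hk1 and Hk2 or Ldha and Ldhb, and hypoxia-inducible factor (HIF) is a well-known activator of many of these genes.

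Values are TPM, a transcript count per length and depth that sums to the same total in each library, so levels can be compared between genes. Aligned depth, taken from the ratio of coverage to FPKM in the files, ran from 3.89 to 4.95 gigabases in the gonads and from 3.25 to 8.32 gigabases in the PGCs. Germ cell markers summed to 2628 to 9909 TPM over the PGC groups, against 545 to 625 TPM in control gonads. Gonad control replicate 1, labelled female, stood apart. Sertoli cell markers of the testis summed to 452 TPM in it, against 49.5 and 49.8 TPM in the other controls. Its Y-linked genes stood at 51.3 TPM. Both mark male gonad, so tests of members in gonads, their counts, medians and share of all TPM are also given without this library. The labels call the 3 libraries of a group biological replicates, and p-values measure the spread between these pools.

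The promoters of 4 members are shown because the members changed under IUHG in different ways. Ldha and Hk1 were called upward in at least 1 PGC group and Ldhb downward in 1. Pfkfb3 was called upward in E13.5 female PGCs and downward in E13.5 male PGCs. Each promoter runs 5′ to 3′ along the gene, from 250 bases before the annotated start to 50 after it, from RefSeq on build GRCm38.p6. Capitals mark ACGTG, the core letters of the HIF element, or CACGT, the same letters on the other strand. The Ldha promoter lies at chr7:46845554-46845853 on the plus strand, that of Hk1 at chr10:62340372-62340671 on the minus strand, that of Pfkfb3 at chr2:11502041-11502340 on the minus strand and that of Ldhb at chr6:142507908-142508207 on the minus strand. Ldha, Hk1 and Pfkfb3 each have a second annotated window, with 0, 0 and 1 matches, and the window with more matches is shown.
Ldha: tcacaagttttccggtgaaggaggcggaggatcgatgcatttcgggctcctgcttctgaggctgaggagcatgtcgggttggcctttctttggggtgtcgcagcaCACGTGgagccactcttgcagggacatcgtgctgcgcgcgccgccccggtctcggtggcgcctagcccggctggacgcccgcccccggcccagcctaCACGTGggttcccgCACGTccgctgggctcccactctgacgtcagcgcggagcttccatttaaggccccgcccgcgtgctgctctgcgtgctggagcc
Hk1: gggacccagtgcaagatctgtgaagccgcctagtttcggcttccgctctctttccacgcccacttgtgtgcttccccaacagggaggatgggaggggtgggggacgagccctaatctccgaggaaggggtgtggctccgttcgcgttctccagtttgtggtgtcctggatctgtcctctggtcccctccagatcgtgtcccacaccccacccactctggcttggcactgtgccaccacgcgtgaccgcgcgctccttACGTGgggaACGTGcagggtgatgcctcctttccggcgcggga
Pfkfb3: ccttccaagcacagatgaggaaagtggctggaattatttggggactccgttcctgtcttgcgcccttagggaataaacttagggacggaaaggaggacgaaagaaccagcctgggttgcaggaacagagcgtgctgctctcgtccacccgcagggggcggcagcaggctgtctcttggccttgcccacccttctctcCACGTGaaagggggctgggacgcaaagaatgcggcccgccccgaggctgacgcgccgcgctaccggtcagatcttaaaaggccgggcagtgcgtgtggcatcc
Ldhb: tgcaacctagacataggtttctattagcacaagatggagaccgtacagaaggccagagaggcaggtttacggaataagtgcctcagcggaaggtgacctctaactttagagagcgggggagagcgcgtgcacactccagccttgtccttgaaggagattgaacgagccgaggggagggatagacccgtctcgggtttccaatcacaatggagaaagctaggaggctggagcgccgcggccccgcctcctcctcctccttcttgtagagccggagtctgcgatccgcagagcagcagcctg

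ACGTG on either strand occurred 5 times in the Ldha window, 2 times each in those of Hk1 and Pfkfb3, and 0 times in that of Ldhb, where a CACGTG counts once on each strand. Among the 38 members matched in RefSeq, 19 held it, against 21.8% of 27025 genes with a window of this length. The longer CACGTG, which contains the core, stood in 6 of the 38, against 8.09% of genes, GGGCGG in 30 against 38.2%, CCAAT in 18 against 41.1% and TATAAA in 3 against 15.7%. Slc2a3 and Slc2a4 were not matched. Some genes have several annotated promoters, and a match is a description of the letters, not evidence of binding.

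In control PGCs the most abundant members, averaged over the 5 groups, were Pkm (pyruvate kinase, 1267 TPM), Eno1 (enolase, 967 TPM), Ldhb (828 TPM), Gapdh (662 TPM) and Aldoa (aldolase, 539.8 TPM). The 40 genes together made up 1.07% ± 0.0200 (SD, n = 3) of all TPM at E12.5, 0.556% ± 0.0324 in E13.5 females, 0.906% ± 0.0336 in E13.5 males, 0.246% ± 0.0153 in E16.5 females and 0.687% ± 0.00435 in E16.5 males. Control gonads stood at 0.624% ± 0.00397, which is not compared with the PGCs because the libraries were aligned and amplified differently. Of the 40 genes, 33 averaged at least 1 TPM in every control PGC group. The highest mean among control PGC groups was at E16.5 in males for 15 members, at E12.5 for 11, at E13.5 for 5 in each sex, and at E16.5 in females for 4. No such count was made over all genes, so these numbers cannot be read as particular to the members. The heat map of levels gives the mean of each gene in each group. Slc2a4, Hk2, Eno2 and Pdk4 were the members below the 1 TPM filter in at least 1 IUHG comparison, with group means there of 0 to 0.955 TPM.

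**Figure D1:**
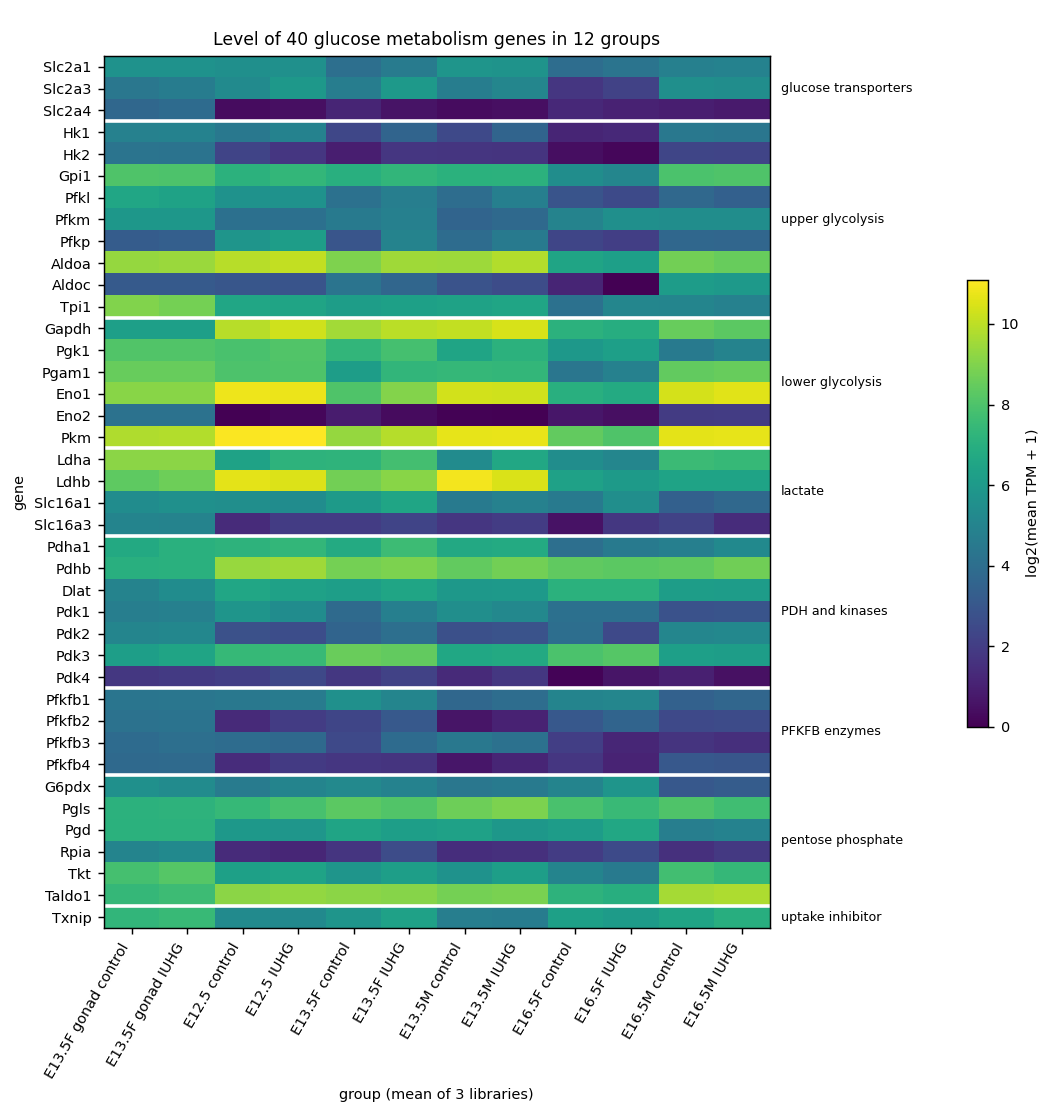
Heat map of the mean level of the 40 genes (rows, by role) in the 12 groups (columns, mean of 3 libraries each), as log2(mean TPM + 1) on the colour scale. The brightest rows are Pkm, Eno1, Gapdh, Ldhb and Aldoa, and the E16.5 female PGC columns are dark for most glycolytic genes, with Pkm at 341 TPM there against 2078 TPM at E12.5 in controls.

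Under IUHG the summed TPM of the members differed most in E13.5 female PGCs, from 0.556% ± 0.0324 to 0.718% ± 0.0313 of all TPM (SD, n = 3). The other pairs of shares were 1.07% ± 0.0200 and 1.14% ± 0.133 at E12.5, 0.906% ± 0.0336 and 0.942% ± 0.0268 in E13.5 males, 0.246% ± 0.0153 and 0.235% ± 0.00264 in E16.5 females, 0.687% ± 0.00435 and 0.713% ± 0.00814 in E16.5 males, and 0.624% ± 0.00397 and 0.650% ± 0.0250 in gonads, where the controls without replicate 1 averaged 0.623%. The plot of sums by role shows which steps contributed. Lower glycolysis summed to 1903 ± 157 TPM in E13.5 female control PGCs and 2853 ± 241 TPM under IUHG, and the transporters to 42.3 ± 4.80 and 87.5 ± 33.3 TPM. In E13.5 males the lactate genes summed to 2005 ± 16.0 TPM in controls and 1573 ± 23.5 TPM under IUHG, while upper glycolysis summed to 990.0 ± 40.9 and 1217 ± 34.4 TPM. These sums carry no test.

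**Figure D2:**
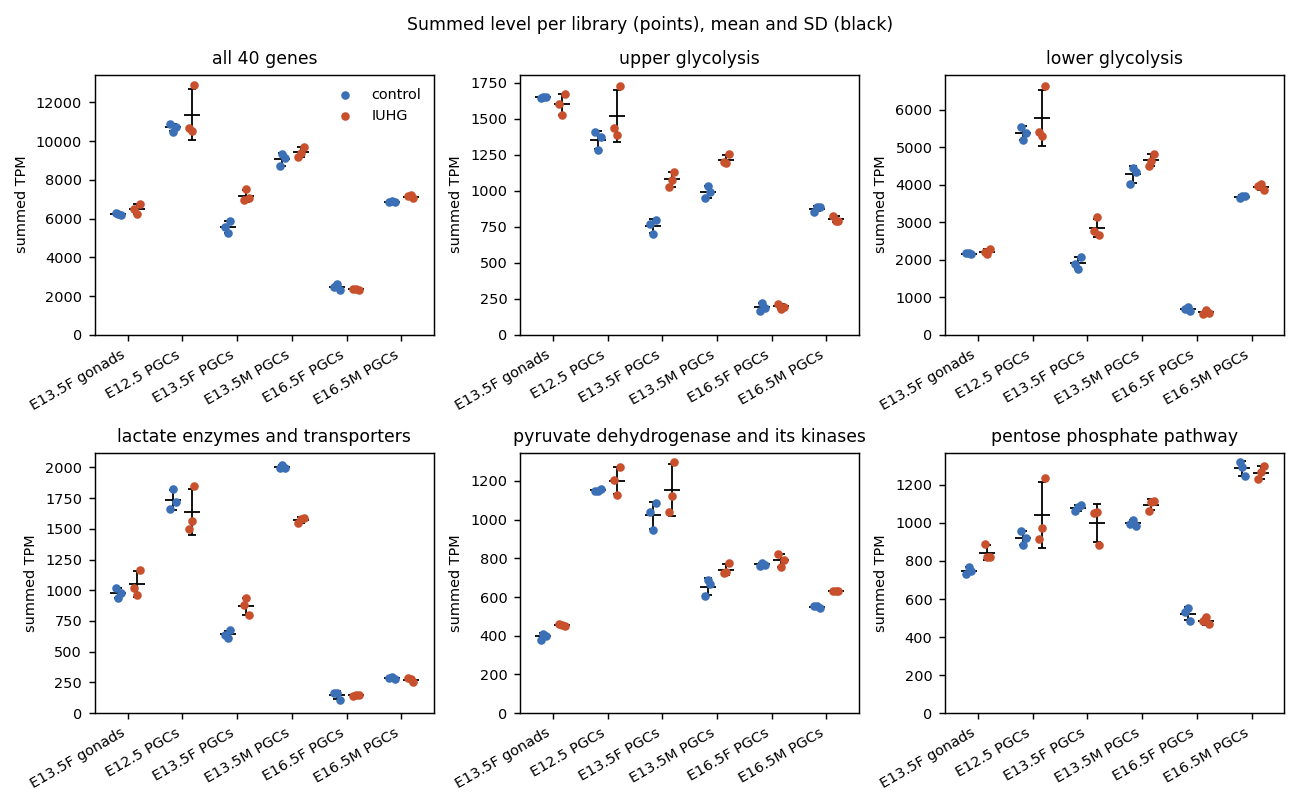
Summed TPM of all 40 genes and of 5 roles in each library (points, control blue and IUHG red), with the group mean and SD in black, for gonads and the 5 kinds of PGCs, each axis starting at 0. All 3 IUHG libraries of E13.5 female PGCs lie above the controls for the 40 genes together, and in E13.5 males the lactate sum is lower under IUHG, at 1573 ± 23.5 TPM against 2005 ± 16.0 TPM.

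The IUHG comparison was tested across all genes with limma on log2(TPM + 1), with Benjamini-Hochberg adjustment over all genes, and each difference below is in log2 units of TPM + 1, which understates changes of low genes. A member is called under IUHG at an adjusted p under 0.05. In E13.5 male PGCs 12 of 38 members tested were called higher and 4 lower, or 31.6% and 10.5%, against 15.2% and 18.0% of all genes. A stricter rule, an adjusted p under 0.01 and a change over 2-fold, took 2 members (Ldha and Hk1) and 3.92% of all genes. The median log2 fold change of members was 0.14 and that of all genes -0.023. In E13.5 females 3 of 39 were called higher and 0 lower, against 1.06% and 1.99% of all genes. At an unadjusted p under 0.05 the counts were 14 higher and 1 lower, against 14.2% and 9.23% of all genes. The strict rule took 0 members and 0.514% of genes, and the medians were 0.44 for members, of which 30 were positive, and 0.14 for all genes, of which 59.4% were positive. The count in these females rested on single libraries, with 0 calls when any 1 control library was left out and 13 when IUHG replicate 3 was left out. The order of the sexes depended on the fit. In a joint fit of all PGC groups more members were called in E13.5 females than in E13.5 males. Shares of all genes called in that fit, or with a library left out, are not given. These shifts therefore cannot be read as particular to the members.

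At E12.5 1 of 38 members was called higher and 0 lower, against 0.879% and 0.697% of all genes, and 0 passed the strict rule, which took 0.247% of genes. Without IUHG replicate 3 the count was 2. In E16.5 females 1 of 37 was called higher and 1 lower, against 2.56% and 3.08%, with 0 members and 0.736% of genes past the strict rule. That count was 0 without any 1 control library or IUHG replicate 3, and 1 without IUHG replicate 1. Under median-of-ratios scaling 1 was higher and 2 lower. In E16.5 males 4 of 38 were called higher and 3 lower, against 3.38% and 2.54%, with 0 members and 0.201% of genes past the strict rule. That count fell to 0 without control replicate 2 or IUHG replicate 2, so none of the E16.5 male calls named below held there. It fell to 1 without control replicate 3, 3 without IUHG replicate 3 and 4 without control replicate 1. With FPKM 3 were higher and 4 lower, and with median-of-ratios scaling 3 and 3. In the gonads 2 of 40 were called higher and 0 lower, against 1.43% and 1.05%, and the rule of 0.05 with 2-fold took 0 members and 0.612% of genes. The count was 1 without control replicate 1 or 2, and 0 without control replicate 3 or any 1 IUHG library. Member medians and those of all genes were 0.086 and 0.036 at E12.5, -0.07 and 0.039 in E16.5 females, 0.018 and 0.041 in E16.5 males, and 0.056 and 0.0074 in gonads, or 0.049 and 0.006 without control replicate 1.

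Of 7 lists of markers of germ cells, other gonadal cells, blood and the Y chromosome, some summed to ranges that did not overlap between controls and IUHG in each PGC group. At E12.5, where Ldha was called, germ cell markers summed to 7861 to 8522 TPM in controls and 6988 to 7785 TPM under IUHG, Sertoli cell markers to 55.1 to 63.2 and 45.0 to 53.9 TPM, pregranulosa markers to 4.38 to 6.10 and 1.40 to 4.10 TPM, interstitial markers to 7.13 to 9.80 and 0.965 to 1.96 TPM, endothelial markers to 145 to 156 and 179 to 187 TPM and Y-linked genes to 194 to 212 and 129.6 to 154 TPM. In E13.5 females, where Eno1, Pgam1 and Pfkfb3 were called, germ cell markers summed to 5257 to 5518 TPM in controls and 5924 to 6745 TPM under IUHG, interstitial markers to 19.3 to 25.6 and 11.3 to 16.3 TPM and endothelial markers to 66.0 to 87.5 and 102 to 218 TPM. In E13.5 males germ cell markers summed to 9208 to 9909 TPM in controls and 7999 to 8309 TPM under IUHG, pregranulosa markers to 15.2 to 19.6 and 9.53 to 10.6 TPM, interstitial markers to 12.4 to 13.3 and 5.27 to 7.27 TPM, endothelial markers to 73.0 to 75.8 and 99.4 to 108 TPM, blood markers to 2.08 to 76.2 and 0.916 to 1.36 TPM and Y-linked genes to 151 to 183 and 116 to 119.6 TPM. Germ cell markers were thus lower under IUHG at E12.5 and in E13.5 males and higher in E13.5 females, and endothelial markers were higher in all 3. In E16.5 females germ cell markers summed to 3025 to 3341 TPM in controls and 2628 to 2994 TPM under IUHG and interstitial markers to 52.2 to 108 and 117 to 161 TPM, and in E16.5 males Sertoli cell markers summed to 196 to 219 TPM in controls and 106 to 135 TPM under IUHG, endothelial markers to 257 to 276 and 225 to 244 TPM and Y-linked genes to 78.1 to 98.8 and 116 to 123 TPM. The part of these markers in the results that follow was not tested.

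**Figure D3:**
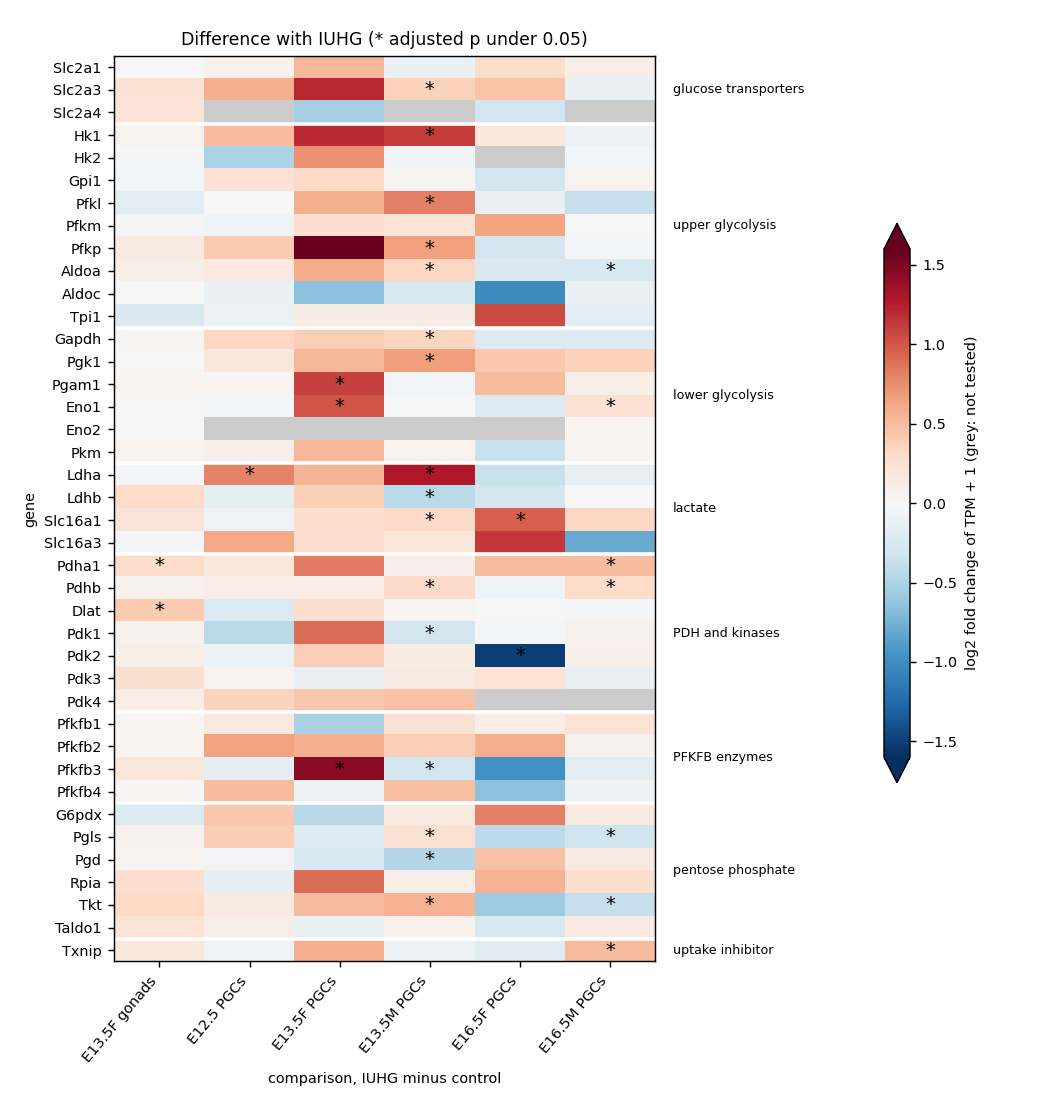
Heat map of the difference in log2(TPM + 1), IUHG minus control, for the 40 genes (rows) in the 6 comparisons (columns), where red is higher under IUHG, grey was not tested and a star marks an adjusted p under 0.05 in limma. E13.5 male PGCs carry 16 stars, 12 of them red, while E13.5 female PGCs show deeper colours but 3 stars. In a joint fit of all PGC groups, not drawn, more members were called in E13.5 females than in E13.5 males. The share of all genes called in that fit is not given.

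Across stages and sexes of control PGCs a call means an adjusted p under 0.01 and a change over 2-fold. From E12.5 to E13.5 females 4 of 39 members rose and 11 fell, against 18.5% and 6.87% of all genes, with medians of -0.36 for members and 0.27 for all genes. Under median-of-ratios scaling 1 rose (Aldoc) and 12 fell in that comparison, and Pdk3, Pfkfb1 and Pfkfb2 were below 2-fold. From E12.5 to E13.5 males 1 of 38 rose and 5 fell, against 8.95% and 7.26%, with medians of -0.51 for members and -0.026 for all genes. From E13.5 to E16.5 in females 0 of 38 rose and 16 fell, against 18.4% and 9.78%, with medians of -0.80 for members and 0.31 for all genes. From E13.5 to E16.5 in males 11 of 39 rose and 10 fell, against 38.3% and 12.7%, with medians of -0.023 for members and 0.62 for all genes. In males compared with females at E13.5, 8 of 39 members were higher and 7 lower, against 9.35% and 20.4% of all genes. At E16.5, 18 of 39 were higher in males and 7 lower, against 28.0% and 22.9%. The median differences, male minus female, were -0.14 for members and -0.28 for all genes at E13.5 and 0.99 and 0.11 at E16.5, and the E13.5 member median was 0.17 under median-of-ratios scaling. Comparisons that share a control group are not independent of each other.

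The glucose transporters in PGCs were Slc2a1 (GLUT1, the common basal form) and Slc2a3 (GLUT3, a high-affinity form), while Slc2a4 (GLUT4, the insulin-responsive form) had PGC group means of 0.294 to 1.46 TPM. Slc2a3 measured 38.5, 36.5 and 42.6 TPM at E12.5, 24.1, 23.1 and 29.0 TPM in E13.5 females, 23.0, 25.0 and 27.6 TPM in E13.5 males, 1.92, 3.54 and 1.59 TPM in E16.5 females and 48.4, 42.1 and 45.7 TPM in E16.5 males. The E16.5 female libraries were the low ones, and no other control group overlapped them. From E13.5 to E16.5 Slc2a3 fell in females by 3.02 ± 0.26 log2 units (SE, adjusted p = 1.21e-05), and at E16.5 it was higher in males by 3.83 ± 0.23 log2 units (SE, adjusted p = 3.85e-06). Slc2a1 measured 48.2, 42.1 and 44.1 TPM at E12.5, 15.7, 14.4 and 17.0 TPM in E13.5 females and 53.1, 58.8 and 51.8 TPM in E13.5 males, and the females were lower than both others without overlap. It fell from E12.5 to E13.5 females by 1.46 ± 0.13 log2 units (SE, adjusted p = 9.03e-06), and at E13.5 it was higher in males by 1.73 ± 0.11 log2 units (SE, adjusted p = 1.77e-06). At E16.5 it read 13.2, 13.6 and 16.9 TPM in females and 30.0, 27.9 and 24.5 TPM in males. Slc2a4 in the gonads read 13.6, 10.6 and 11.7 TPM in controls and 15.6, 13.52 and 12.6 TPM under IUHG (adjusted p = 0.386, or 0.253 without control replicate 1).

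Under IUHG Slc2a3 was the only transporter called, in 1 of the 6 comparisons. In E13.5 male PGCs it rose by 0.37 ± 0.093 log2 units (SE, adjusted p = 0.0136), from 23.0, 25.0 and 27.6 TPM to 30.4, 31.6 and 36.7 TPM, and the groups did not overlap. At E12.5 it measured 38.5, 36.5 and 42.6 TPM in controls and 66.4, 57.9 and 51.8 TPM under IUHG, without overlap, and did not pass the test (log2 difference 0.57, adjusted p = 0.056). In E13.5 females it measured 24.1, 23.1 and 29.0 TPM and 38.5, 57.6 and 94.7 TPM, a wider spread under IUHG that did not pass either (log2 difference 1.20, adjusted p = 0.0691). Slc2a1 passed the test in 0 of the 6 IUHG comparisons, with adjusted p from 0.216 to 0.937. Its E13.5 male libraries read 53.1, 58.8 and 51.8 TPM in controls and 47.6, 49.6 and 54.1 TPM under IUHG. The Slc2a3 share of summed Slc2a1 and Slc2a3 TPM was 46.7% ± 2.39 in controls and 55.5% ± 3.79 under IUHG at E12.5, 61.7% ± 1.28 and 71.8% ± 4.91 in E13.5 females, and 31.6% ± 2.73 and 39.5% ± 0.834 in E13.5 males (SD, n = 3). In each case the exact two-sided permutation p was 0.1, the smallest that 3 against 3 allow, and 0.267 after adjustment over the 96 isozyme shares computed.

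Txnip, which limits glucose uptake by drawing GLUT transporters from the surface and is induced by glucose, rose in E16.5 male PGCs. It measured 95.2, 83.1 and 85.9 TPM in controls and 122, 124 and 127 TPM under IUHG, a rise of 0.49 ± 0.071 log2 units (SE, adjusted p = 0.0102), with no overlap. In the other PGC comparisons it did not pass the test, with 50.1, 46.6 and 64.6 TPM in controls and 70.8, 75.4 and 94.7 TPM under IUHG in E13.5 females (adjusted p = 0.152) and 81.4, 84.2 and 66.6 TPM and 69.3, 66.3 and 66.3 TPM in E16.5 females (adjusted p = 0.402). In control males Txnip rose from E13.5 to E16.5 by 1.71 ± 0.073 log2 units (SE, adjusted p = 1.56e-07). The gonads held it at 179, 167 and 129 TPM in controls and 176, 160.5 and 192 TPM under IUHG (adjusted p = 0.485, or 0.284 without control replicate 1).

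In upper glycolysis Hk1, the widely expressed hexokinase (ENSMUSG00000037012.19, chromosome 10, 62104634 to 62215687 in the PGC annotation), measured 24.0, 18.8 and 19.8 TPM at E12.5, 4.68, 2.71 and 4.85 TPM in E13.5 females and 4.29, 4.32 and 4.69 TPM in E13.5 males. It fell by 2.13 ± 0.21 log2 units (SE, adjusted p = 2.43e-05) toward females and by 2.00 ± 0.13 log2 units (SE, adjusted p = 8.70e-07) toward males, and both E13.5 groups lay below all E12.5 libraries. In males it then rose to 20.6, 20.6 and 22.2 TPM at E16.5, by 2.03 ± 0.097 log2 units (SE, adjusted p = 2.82e-07), while E16.5 females read 1.19, 2.05 and 0.422 TPM. Pfkp, the platelet form of phosphofructokinase, fell from 54.8, 51.5 and 55.7 TPM at E12.5 to 7.20, 3.97 and 8.78 TPM in E13.5 females, by 2.90 ± 0.23 log2 units (SE, adjusted p = 4.52e-06), and to 13.6, 15.4 and 14.1 TPM in males, by 1.84 ± 0.091 log2 units (SE, adjusted p = 1.79e-07). Pfkl, the liver form, fell by 1.56 log2 units and 1.70 log2 units in the same comparisons, from 50.4, 48.2 and 51.1 TPM to 13.3, 16.1 and 14.7 TPM in the second, and Hk2, the insulin-regulated hexokinase, fell by 1.35 log2 units toward E13.5 females. Aldoc, an aldolase best known from brain, measured 7.74, 5.95 and 6.93 TPM at E12.5, rose toward E13.5 females by 1.30 ± 0.19 log2 units (SE, adjusted p = 2.99e-04), and then went opposite ways in the sexes to E16.5. It fell in females from 20.2, 14.2 and 21.2 TPM to 1.47, 2.26 and 0 TPM, by 3.27 ± 0.41 log2 units (SE, adjusted p = 1.32e-04), and rose in males from 6.51, 5.82 and 6.26 TPM to 62.2, 71.2 and 74.9 TPM, by 3.29 ± 0.096 log2 units (SE, adjusted p = 2.56e-08). At E16.5 it was the member with the widest sex difference, higher in males by 5.13 ± 0.40 log2 units (SE, adjusted p = 1.54e-05). The abundant Aldoa fell in females from 491, 468 and 510.0 TPM to 83.3, 109 and 74.6 TPM, by 2.46 log2 units, and read 1004, 927 and 986 TPM at E12.5, 693, 753 and 706 TPM in E13.5 males and 431, 432 and 430.2 TPM in E16.5 males. Gpi1 and Tpi1, which interconvert sugar phosphates, fell in females from E13.5 to E16.5 by 1.58 log2 units and 2.12 log2 units.

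Under IUHG 4 of the 9 upper glycolytic genes rose in E13.5 male PGCs and 0 fell, where 15.2% of all genes were called higher and 18.0% lower. Hk1 measured 4.29, 4.32 and 4.69 TPM in the control libraries and 9.53, 11.0 and 11.8 TPM in the IUHG libraries, a rise of 1.11 ± 0.11 log2 units (SE, adjusted p = 9.95e-05), with no overlap. Pfkl measured 13.3, 16.1 and 14.7 TPM in the control libraries and 22.7, 27.4 and 29.8 TPM in the IUHG libraries, a rise of 0.81 ± 0.11 log2 units (SE, adjusted p = 5.43e-04). Pfkp measured 13.6, 15.4 and 14.1 TPM in the control libraries and 21.2, 24.0 and 24.3 TPM in the IUHG libraries, a rise of 0.65 ± 0.087 log2 units (SE, adjusted p = 5.02e-04). The controls of all 3 genes lay below every IUHG library. Aldoa rose by 0.33 ± 0.043 log2 units (SE, adjusted p = 3.86e-04), from 693, 753 and 706 TPM to 899, 889 and 926 TPM, and Hk2 read 2.57, 2.09 and 2.30 TPM and 2.48, 1.83 and 2.30 TPM (adjusted p = 0.801). In E13.5 females Pfkp measured 7.20, 3.97 and 8.78 TPM in controls and 16.48, 21.0 and 53.4 TPM under IUHG, a difference of 1.90 log2 units that missed the threshold (adjusted p = 0.052), with 1 IUHG library far above the others. Hk1 read 4.68, 2.71 and 4.85 TPM and 7.41, 8.71 and 17.1 TPM there (adjusted p = 0.107), and Aldoc 20.2, 14.2 and 21.2 TPM and 13.0, 14.4 and 7.53 TPM (adjusted p = 0.226). At E12.5 Hk2 read 3.25, 3.71 and 4.55 TPM and 2.27, 2.99 and 1.97 TPM (adjusted p = 0.28). None of these passed the test. In E16.5 males Aldoa went the other way and fell by 0.24 ± 0.047 log2 units (SE, adjusted p = 0.0227), from 431, 432 and 430.2 TPM to 366, 364 and 361 TPM. In gonads Tpi1 measured 504, 543 and 505 TPM in controls and 421, 427 and 479 TPM under IUHG (adjusted p = 0.0866, or 0.117 without control replicate 1), and Pfkl 92.9, 94.2 and 98.2 TPM and 76.3, 86.7 and 90.2 TPM (adjusted p = 0.207, or 0.252 without it).

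Isozyme shares describe the same values as proportions. In E13.5 males the Hk2 share of summed Hk1 and Hk2 TPM was 34.3% ± 2.73 in controls and 17.0% ± 3.29 under IUHG, and in E13.5 females the Pfkp share of the 3 phosphofructokinases was 14.2% ± 3.40 in controls and 33.9% ± 7.82 under IUHG (SD, n = 3). Both had the smallest exact permutation p of 0.1 and an adjusted p of 0.267. In all, 36 of the 96 shares had that p.

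Lower glycolysis held 3 of the 5 most abundant members, Pkm, Eno1 and Gapdh. Eno1 measured 1826, 1842 and 1809 TPM at E12.5, 262, 263 and 267 TPM in E13.5 females and 1174, 1351 and 1338 TPM in E13.5 males, so the females were far below both other groups. It fell toward females by 2.79 ± 0.06 log2 units (SE, adjusted p = 2.17e-09), and was higher in males at E13.5 by 2.28 ± 0.074 log2 units (SE, adjusted p = 5.44e-08). At E16.5 females read 131, 143 and 109 TPM and males 1353, 1302 and 1331 TPM. Pgam1, phosphoglycerate mutase, measured 17.2, 19.9 and 21.4 TPM in E16.5 females and 337, 352 and 339 TPM in E16.5 males, a male excess of 4.07 ± 0.099 log2 units (SE, adjusted p = 1.23e-07). Pkm, which makes pyruvate, measured 2169, 1953 and 2114 TPM at E12.5, 733, 551 and 667 TPM in E13.5 females and 1538, 1737 and 1668 TPM in E13.5 males, and fell toward females by 1.68 log2 units (adjusted p = 8.54e-07). At E16.5 it read 311, 376 and 337 TPM in females and 1579, 1641 and 1639.6 TPM in males. Gapdh, the first enzyme after the sugar is split, measured 1051, 888 and 969 TPM at E12.5, 675, 706 and 891 TPM in E13.5 females and 142, 149 and 126 TPM in E16.5 females, and fell between the last of these by 2.43 log2 units (adjusted p = 5.30e-07). In males it read 1070.4, 1086 and 1082 TPM at E13.5 and 342, 389 and 371 TPM at E16.5. Pgk1, an X-linked kinase that makes ATP, fell toward E13.5 males by 1.44 log2 units and again to E16.5 males by 1.91 log2 units. Eno2, the neuronal enolase, rose in males from E13.5 to E16.5 by 1.84 log2 units but only to a mean of 2.76 TPM.

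Under IUHG Eno1 and Pgam1 rose in E13.5 female PGCs. Eno1 measured 262, 263 and 267 TPM in the control libraries and 476, 571 and 547 TPM in the IUHG libraries, a rise of 1.00 ± 0.15 log2 units (SE, adjusted p = 0.0124). Pgam1 measured 69.4, 72.2 and 76.2 TPM in the control libraries and 156, 153 and 157 TPM in the IUHG libraries, a rise of 1.09 ± 0.16 log2 units (SE, adjusted p = 0.0113). The IUHG libraries of both genes stood above every control library, yet below the E13.5 male controls for Eno1. Neither call, nor that of Pfkfb3 below, held when any 1 female control library was left out. In E13.5 males the same genes did not pass the test, with Eno1 at 1174, 1351 and 1338 TPM and 1247, 1229 and 1351 TPM and Pgam1 at 153, 179.8 and 176 TPM and 161, 160.3 and 169 TPM. There Pgk1 rose by 0.67 ± 0.07 log2 units (SE, adjusted p = 1.19e-04), from 82.8, 96.5 and 87.4 TPM to 139, 135 and 152 TPM, and Gapdh by 0.34 ± 0.035 log2 units (SE, adjusted p = 1.14e-04), from 1070.4, 1086 and 1082 TPM to 1337, 1373 and 1396 TPM. In E16.5 males Eno1 rose slightly, by 0.23 ± 0.049 log2 units (SE, adjusted p = 0.031), from 1353, 1302 and 1331 TPM to 1595, 1619 and 1478 TPM. Pkm passed the test in 0 of the 6 comparisons.

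Among the lactate genes, Ldhb, the form of lactate dehydrogenase that favours lactate use (ENSMUSG00000030246.13, chromosome 6, 142435975 to 142453683), measured 1529.6, 1706 and 1592 TPM at E12.5, 417, 404 and 449 TPM in E13.5 females, 1932, 1956 and 1930.3 TPM in E13.5 males, 104, 88.8 and 51.1 TPM in E16.5 females and 78.6, 86.4 and 89.0 TPM in E16.5 males. It fell in males from E13.5 to E16.5 by 4.50 ± 0.055 log2 units (SE, adjusted p = 2.15e-09), and was higher in males at E13.5 by 2.19 ± 0.065 log2 units (SE, adjusted p = 3.18e-08). Ldha, the form that favours lactate production (ENSMUSG00000063229.16, chromosome 7, 46495263 to 46505051), measured 87.3, 80.5 and 78.9 TPM at E12.5, 145, 147 and 151 TPM in E13.5 females, 39.4, 41.5 and 38.9 TPM in E13.5 males, 37.1, 51.8 and 39.0 TPM in E16.5 females and 195, 196 and 178 TPM in E16.5 males. It fell toward E13.5 males by 1.02 ± 0.075 log2 units (SE, adjusted p = 1.56e-06), was lower in males than females at E13.5 by 1.86 ± 0.078 log2 units (SE, adjusted p = 2.09e-07), and rose in males to E16.5 by 2.22 ± 0.065 log2 units (SE, adjusted p = 2.51e-08). The lactate carrier Slc16a1 (MCT1) was lower in males at both ages, by 1.48 log2 units at E13.5 and 1.11 log2 units at E16.5. Slc16a3 (MCT4), an exporter, had control PGC means of 0.476 to 3.61 TPM.

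Ldha was the only member called at E12.5 under IUHG, and in E13.5 males it had the lowest adjusted p of the members. At E12.5 Ldha measured 87.3, 80.5 and 78.9 TPM in the control libraries and 138, 141 and 152 TPM in the IUHG libraries, a rise of 0.80 ± 0.093 log2 units (SE, adjusted p = 0.00413). In E13.5 males Ldha measured 39.4, 41.5 and 38.9 TPM in the control libraries and 96.0, 94.7 and 105 TPM in the IUHG libraries, a rise of 1.28 ± 0.062 log2 units (SE, adjusted p = 1.11e-06). Both comparisons were without overlap, and both calls held in every alternative run for them, 12 each. None of these alternatives covers the mix of sexes at E12.5, where sex is unrecorded and Y-linked genes summed lower under IUHG without overlap. At E13.5 control females were higher in Ldha and control males in Ldhb. The part of the mix of sexes in the E12.5 values of Ldha and of the Ldhb share was not tested. The E13.5 female values were 145, 147 and 151 TPM and 212, 246 and 192 TPM, which did not pass (adjusted p = 0.108). Ldhb fell in E13.5 males, from 1932, 1956 and 1930.3 TPM to 1419, 1456 and 1452 TPM, by 0.43 ± 0.033 log2 units (SE, adjusted p = 2.03e-05). Its share of Ldha and Ldhb together was 98.0% ± 0.0538 in controls and 93.6% ± 0.324 under IUHG in E13.5 males, and 95.1% ± 0.466 in controls and 90.9% ± 0.575 under IUHG at E12.5 (SD, n = 3), each with the smallest exact permutation p of 0.1 and an adjusted p of 0.267. Slc16a1 rose in E13.5 males by 0.31 ± 0.078 log2 units (SE, adjusted p = 0.0144), from 22.0, 22.9 and 24.3 TPM to 29.1, 26.7 and 30.5 TPM, and in E16.5 females by 0.95 ± 0.23 log2 units (SE, adjusted p = 0.0455), from 19.6, 25.8 and 20.3 TPM to 58.0, 31.7 and 43.2 TPM. The plot of lactate dehydrogenase levels gives each library. Beside the E13.5 male values, the processed copy Ldhb-ps, which resembles Ldhb and may take some of its reads, read 15.9 to 22.1 TPM in controls and 63.1 to 66.7 TPM under IUHG, with means of 0.941% and 4.46% of Ldhb.

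**Figure D4:**
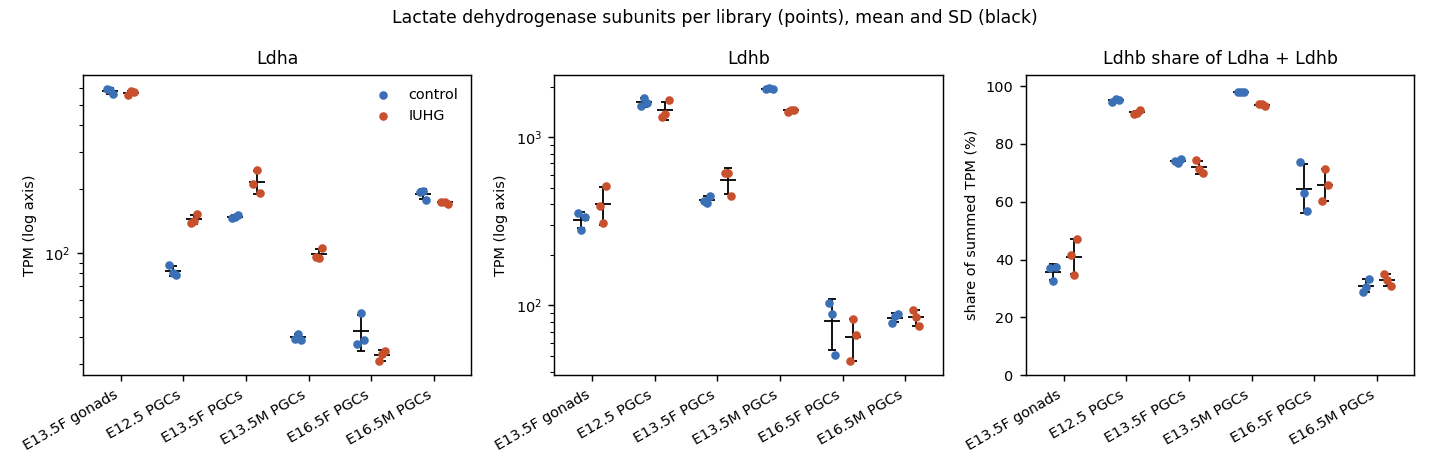
Ldha and Ldhb in TPM on log axes, and the Ldhb share of their sum in percent, per library (points, control blue and IUHG red) with the group mean and SD in black. In E13.5 male PGCs Ldha is higher and Ldhb lower under IUHG without overlap, with Ldhb shares of 98.0% ± 0.0538 in controls and 93.6% ± 0.324 under IUHG (SD, n = 3).

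In the pyruvate dehydrogenase complex Pdha1, the X-linked catalytic subunit, measured 108, 99.4 and 117 TPM in E13.5 females and 17.0, 17.3 and 12.2 TPM in E16.5 females, a fall of 2.74 ± 0.17 log2 units (SE, adjusted p = 1.53e-06), and fell in males by 1.90 log2 units. Pdhb, the partner subunit of that enzyme, and Dlat, the core of the complex, were called in 0 of the 4 stage and 2 sex comparisons. Among the kinases, which inactivate the complex, Pdk1, a HIF target, measured 55.2, 52.7 and 56.4 TPM at E12.5, 14.0, 10.5 and 15.8 TPM in E13.5 females, 40.5, 44.2 and 46.7 TPM in E13.5 males and 5.75, 5.56 and 6.40 TPM in E16.5 males. It fell in males to E16.5 by 2.70 ± 0.096 log2 units (SE, adjusted p = 6.24e-08). The X-linked Pdk3 was the most abundant kinase, at 373, 369 and 380.3 TPM in E13.5 females and 88.5, 104 and 99.2 TPM in E13.5 males, and was lower in males by 1.94 ± 0.08 log2 units (SE, adjusted p = 1.86e-07). It had risen toward E13.5 females by 1.12 log2 units from 184, 161 and 172 TPM at E12.5, and at E16.5 it was lower in males by 1.68 ± 0.087 log2 units (SE, adjusted p = 2.06e-06), at 242, 254 and 251 TPM in females and 84.9, 76.0 and 70.6 TPM in males. Pdk2 rose in males from 6.38, 5.84 and 4.42 TPM at E13.5 to 31.4, 31.7 and 37.3 TPM at E16.5, by 2.40 ± 0.14 log2 units (SE, adjusted p = 7.61e-07), and Pdk4 fell in females to E16.5 by 1.63 log2 units, to a mean of 0.0850 TPM.

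Pdha1 and Dlat were the members called in the gonads under IUHG. Pdha1 measured 103, 110.3 and 108 TPM in the control libraries and 131, 132 and 131 TPM in the IUHG libraries, a rise of 0.30 ± 0.047 log2 units (SE, adjusted p = 0.0221). Dlat measured 28.7, 33.1 and 28.8 TPM in the control libraries and 39.6, 42.5 and 40.3 TPM in the IUHG libraries, a rise of 0.42 ± 0.075 log2 units (SE, adjusted p = 0.0325). The groups did not overlap. Without control replicate 1 the values were 0.27 (adjusted p = 0.0408) for Pdha1 and 0.39 (adjusted p = 0.0618) for Dlat. Germ cell markers in the gonads summed to 545 to 625 TPM in controls and 714 to 881 TPM under IUHG, interstitial markers to 3512 to 3834 and 2674 to 2943 TPM, and blood markers to 13713 to 16984 and 10563 to 12024 TPM. In whole gonads a change in the number of cells of a type and a change of RNA per cell cannot be told apart. In PGCs Pdhb rose in E13.5 males by 0.30 ± 0.063 log2 units (SE, adjusted p = 0.00519), from 309, 360.1 and 357 TPM to 411, 413 and 441 TPM, and in E16.5 males by 0.29 ± 0.049 log2 units (SE, adjusted p = 0.0156), from 336, 337 and 332 TPM to 402, 412 and 420.1 TPM. Pdha1 rose in E16.5 males by 0.49 ± 0.11 log2 units (SE, adjusted p = 0.0339), from 23.4, 29.9 and 26.9 TPM to 40.3, 36.6 and 36.7 TPM. Those groups did not overlap. Pdk1 fell in E13.5 males by 0.30 ± 0.07 log2 units (SE, adjusted p = 0.00993), from 40.5, 44.2 and 46.7 TPM to 34.4, 36.0 and 35.9 TPM. At E12.5 it read 55.2, 52.7 and 56.4 TPM and 36.7, 46.2 and 39.1 TPM and did not pass (adjusted p = 0.113). Pdk2 fell in E16.5 females by 1.51 ± 0.35 log2 units (SE, adjusted p = 0.0375), from 11.1, 23.2 and 11.2 TPM to 3.18, 5.83 and 4.42 TPM, with every IUHG library below the controls. In these E16.5 females interstitial markers summed to 52.2 to 108 TPM in controls and 117 to 161 TPM under IUHG, and their part in the result was not tested.

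The PFKFB enzymes set the level of fructose 2,6-bisphosphate, which speeds phosphofructokinase. In control PGCs Pfkfb1 was the most abundant of them except in E13.5 males, where Pfkfb3, a strongly kinase-active and HIF-inducible form, led. Pfkfb3 measured 14.0, 13.6 and 15.6 TPM at E12.5, 4.24, 4.62 and 4.38 TPM in E13.5 females, 19.8, 21.5 and 20.6 TPM in E13.5 males and 2.47, 1.91 and 2.12 TPM in E16.5 males. It was higher in males at E13.5 by 2.00 ± 0.13 log2 units (SE, adjusted p = 2.04e-06), and fell in males to E16.5 by 2.77 ± 0.11 log2 units (SE, adjusted p = 1.26e-07). Pfkfb1 went the other way between sexes, at 46.8, 45.8 and 46.6 TPM in E13.5 females and 10.9, 12.1 and 13.45 TPM in males, lower in males by 1.85 ± 0.11 log2 units (SE, adjusted p = 1.43e-06). It rose from 20.2, 23.9 and 18.6 TPM at E12.5 toward E13.5 females by 1.12 log2 units, as did Pfkfb2 by 1.01 log2 units. At E16.5 Pfkfb1 read 42.5, 24.1 and 27.1 TPM in females and 11.6, 10.1 and 8.20 TPM in males, lower in males by 1.53 ± 0.23 log2 units (SE, adjusted p = 5.81e-04). Pfkfb2 and Pfkfb4 rose in males to E16.5 by 1.84 log2 units and 2.38 log2 units, Pfkfb2 to a mean of 4.55 TPM and Pfkfb4 from 0.342, 0.832 and 0.618 TPM to 7.72, 8.25 and 6.00 TPM. Under IUHG Pfkfb3 rose in E13.5 females by 1.45 ± 0.26 log2 units (SE, adjusted p = 0.0232), from 4.24, 4.62 and 4.38 TPM to 13.0, 12.2 and 16.498 TPM, and fell in E13.5 males by 0.29 ± 0.084 log2 units (SE, adjusted p = 0.0251), from 19.8, 21.5 and 20.6 TPM to 15.5, 16.497 and 18.1 TPM. Neither pair of groups overlapped. Pfkfb1 in E13.5 females read 46.8, 45.8 and 46.6 TPM and 28.5, 37.0 and 31.6 TPM (adjusted p = 0.165). The share of Pfkfb1 in the 4 genes there was 81.2% ± 2.52 in controls and 58.3% ± 7.33 under IUHG, and that of Pfkfb3 was 7.74% ± 0.652 in controls and 25.0% ± 3.39 under IUHG (SD, n = 3), each with an exact permutation p of 0.1, the smallest possible, and an adjusted p of 0.267.

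In the pentose phosphate pathway the reversible sugar-exchange enzymes Tkt and Taldo1 were higher in males at E16.5. Tkt measured 30.4, 32.7 and 31.7 TPM in females and 215, 224 and 199 TPM in males, higher in males by 2.71 ± 0.086 log2 units (SE, adjusted p = 2.85e-07), and it rose in males from E13.5 by 2.07 log2 units. Taldo1 measured 171, 140.3 and 123 TPM and 805, 781 and 753 TPM, higher in males by 2.43 ± 0.11 log2 units (SE, adjusted p = 1.30e-06). The NADPH-making enzymes went the other way. G6pdx, X-linked and the entry to the pathway, measured 21.8, 38.3 and 32.7 TPM in E16.5 females and 6.66, 7.82 and 7.40 TPM in males, lower in males by 1.91 ± 0.21 log2 units (SE, adjusted p = 1.05e-04), and Pgd was lower by 1.37 log2 units. Pgls, the lactonase between them, was the member that rose from E12.5 to E13.5 males, from 193, 167 and 163 TPM to 405, 389 and 412 TPM, by 1.20 ± 0.07 log2 units (SE, adjusted p = 4.26e-07). Rpia, which makes ribose 5-phosphate, was called in none of the 4 stage and 2 sex comparisons and had means of 1.55 to 2.88 TPM in control PGCs.

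Under IUHG 2 of 6 pentose phosphate genes rose and 1 fell in E13.5 males, against 15.2% and 18.0% of all genes. Tkt rose by 0.55 ± 0.085 log2 units (SE, adjusted p = 0.00106), from 46.0, 56.3 and 47.5 TPM to 69.0, 72.7 and 79.3 TPM. Pgls rose by 0.24 ± 0.042 log2 units (SE, adjusted p = 0.00195), from 405, 389 and 412 TPM to 464, 479 and 485 TPM. Pgd fell by 0.47 ± 0.066 log2 units (SE, adjusted p = 6.84e-04), from 73.3, 81.2 and 85.9 TPM to 58.6, 57.1 and 57.1 TPM. In E16.5 males Tkt and Pgls fell instead, calls that did not hold without control replicate 2 or IUHG replicate 2. Tkt measured 215, 224 and 199 TPM in the control libraries and 179, 162 and 154 TPM in the IUHG libraries, a fall of 0.37 ± 0.076 log2 units (SE, adjusted p = 0.0294). Pgls measured 267, 253 and 258 TPM in the control libraries and 219.6, 211 and 192 TPM in the IUHG libraries, a fall of 0.32 ± 0.066 log2 units (SE, adjusted p = 0.028). None of these groups overlapped. In E16.5 females G6pdx read 21.8, 38.3 and 32.7 TPM in controls and 59.0, 54.3 and 48.2 TPM under IUHG (adjusted p = 0.0549) and Pgls 231, 268 and 231 TPM and 194, 187 and 164 TPM (adjusted p = 0.0512), just outside the threshold. G6pdx and Taldo1 passed the test in 0 of the 6 IUHG comparisons.

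The difference between the male and the female response to IUHG was tested as an interaction in 1 limma fit of the 4 PGC groups of an age. At E13.5 8 of 39 members passed at an adjusted p under 0.05, 2 of them with the larger log2 fold change in males, against 9.88% of all genes. At E16.5 4 of 39 passed, 3 of them so, against 4.43%. With FPKM these splits were 3 of 8 and 3 of 5, and with median-of-ratios scaling 2 of 7 and 2 of 4. The E13.5 count ranged from 5 to 13 when 1 library was left out, lowest without female control replicate 1 or 2, male control replicate 1 or 2 or any male IUHG replicate, and highest without female IUHG replicate 1, with 12 without female IUHG replicate 3. The E16.5 count ranged from 0 to 6, at 0 without male control replicate 2 or 3 or male IUHG replicate 2, at 1 without male IUHG replicate 3, at 2 without female IUHG replicate 3, male control replicate 1 or male IUHG replicate 1, and at 6 without female IUHG replicate 2. Male minus female, the difference of log2 fold changes at E13.5 was -1.74 ± 0.22 log2 units (SE, adjusted p = 4.74e-04) for Pfkfb3, which rose in females and fell in males. It was -1.14 ± 0.14 log2 units (SE, adjusted p = 4.71e-04) for Pgam1 and -1.01 ± 0.14 log2 units (SE, adjusted p = 0.00113) for Eno1, called in females alone, and -0.81 ± 0.17 log2 units (SE, adjusted p = 0.0117) for Ldhb, which fell in males. The response of Ldha was larger in males, by 0.74 ± 0.16 log2 units (SE, adjusted p = 0.012). Pdk1 (-1.19), Pdha1 (-0.75) and Pfkfb1 (0.76) passed with adjusted p of 0.0382, 0.0267 and 0.0282. At E16.5 the difference was 0.69 ± 0.14 log2 units (SE, adjusted p = 0.0184) for Txnip and 0.36 ± 0.077 log2 units (SE, adjusted p = 0.0234) for Pdhb, higher in the male response. It was 1.59 ± 0.36 log2 units (SE, adjusted p = 0.0314) for Pdk2, which fell in females, and -1.94 ± 0.50 log2 units (SE, adjusted p = 0.0475) for Slc16a3, whose means were 0.476 and 2.49 TPM in females and 3.61 and 1.64 TPM in males.

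**Figure D5:**
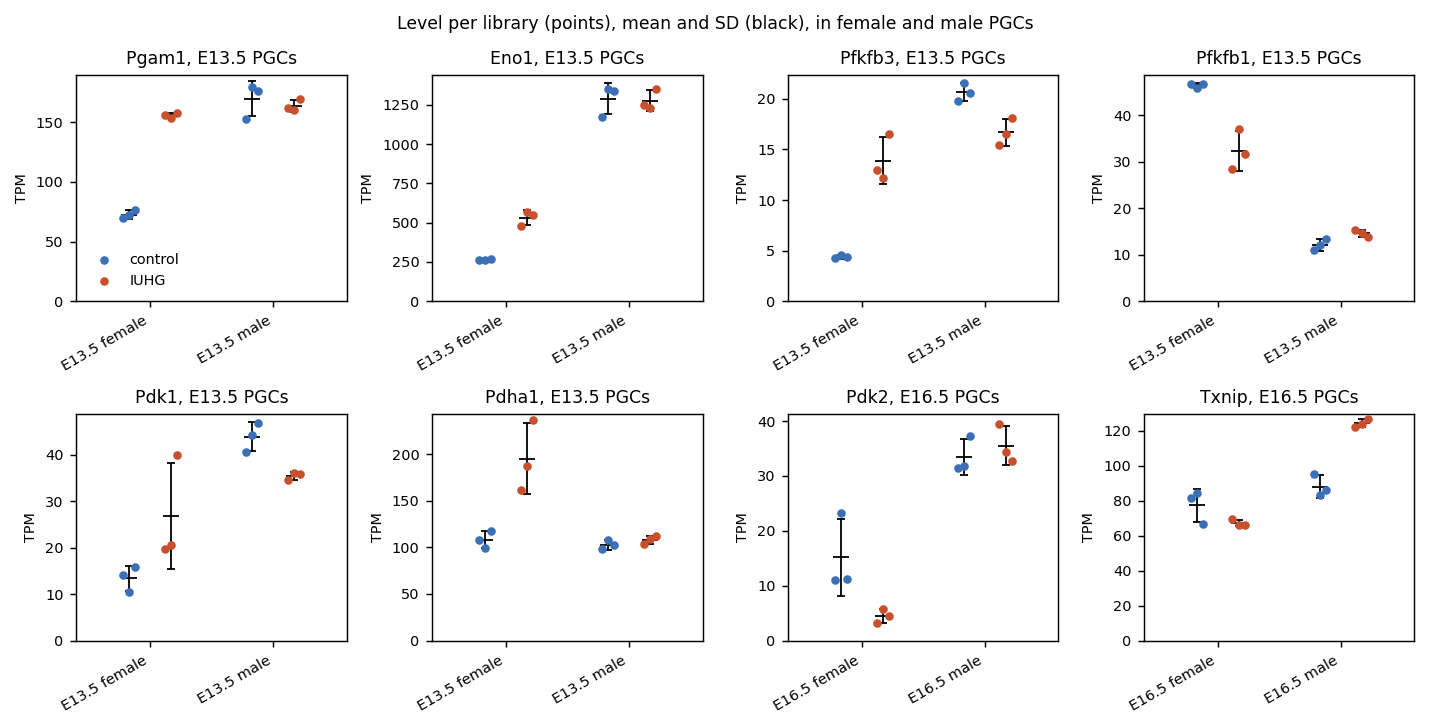
Level in TPM per library (points, control blue and IUHG red), with the group mean and SD in black, for 6 genes at E13.5 and 2 at E16.5 whose response to IUHG differed between female and male PGCs in the interaction test, each axis starting at 0. Pgam1, Eno1 and Pfkfb3 rise in females toward the male level, and Txnip rises in males at E16.5.

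Pgk1, G6pdx, Pdha1, Pdk3 and Pfkfb1 lie on the X chromosome, which female germ cells reactivate. In controls at E13.5 5 of these 5 were lower in males, with a median difference of -0.86 (from -1.94 to -0.076), beside -0.94 over 634 X-linked genes tested. The other 34 members had a median of -0.086, with 19 lower, beside -0.26 over 15084 other genes. At E16.5 4 of 5 were lower in males, with a median of -1.53 (from -1.91 to 0.76), beside -0.60 over 836 X-linked genes, while the other 34 members had a median of 1.22, with 9 lower, beside 0.13 over 21229 other genes. The exception at E16.5 was Pdha1.

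Several members have near-identical processed copies that can share their reads, so the levels of these members are uncertain. In the gonads Gapdh measured 75.5 TPM in controls while Gapdh-ps15 and Gapdh-ps16 had means equal to 51.7% and 32.5% of it, and Pgam1-ps2 stood at 11.1% of Pgam1. Ldhb-ps stood at 12.4% of Ldhb in control gonads and 5.22% under IUHG. Gonad and PGC libraries were aligned and amplified differently, so levels of members are not compared between them.

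Genes around the pathway, in 8 lists, were counted by the same rule, and values in parentheses are log2 differences, IUHG minus control. Calls of these genes were not checked under the alternatives run for the members, except in gonads without control replicate 1. Of 8 germline isozymes of glycolysis, such as the testis forms, 3 to 6 were tested in each IUHG comparison and 0 passed. Of 12 HIF targets outside glycolysis 3 rose and 5 fell among 10 tested in E13.5 male PGCs, against 15.2% and 18.0% of all genes. The risers were Adm (0.95), Egln3 (0.40) and P4ha2 (0.39), and the genes that fell were Bnip3l (-0.22), Ddit4 (-0.87), Kdm3a (-0.59), Ndrg1 (-0.55) and P4ha1 (-0.47). In E16.5 males 3 of 12 rose and 0 fell, against 3.38% and 2.54% of all genes. They were Bnip3 (0.48), Bnip3l (0.36) and Kdm3a (0.39). Egln3 (1.56) rose in E13.5 females and Ndrg1 (-2.18) fell in E16.5 females, and 0 passed at E12.5 and in gonads. Among 18 regulators of glycolytic genes listed, not all of them tested in each comparison, Hif1a rose by 0.23 ± 0.074 log2 units (SE, adjusted p = 0.0371) in E13.5 males. There Arrdc4 (0.55), Egln3, Mlxipl (0.85), Tigar (0.35) and Vhl (0.35) also rose and Egln2 (-0.19) and Epas1 (-0.57) fell. Myc, a known activator of glycolysis, fell at E12.5 by 1.39 ± 0.22 log2 units (SE, adjusted p = 0.0177). Stk11, the LKB1 kinase, rose in E13.5 females by 2.22 ± 0.25 log2 units (SE, adjusted p = 0.00328) and fell in E16.5 females by 1.70 ± 0.19 log2 units (SE, adjusted p = 0.00264), where Tigar (-1.31) fell and Vhl (0.90) rose. Arrdc4, a relative of Txnip, rose in E16.5 males (0.35), and Mycn (0.55) rose in gonads, with an adjusted p of 0.00961 without control replicate 1.

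Among 22 other enzymes of glycolysis and gluconeogenesis 4 rose and 3 fell of 13 tested in E13.5 males, Pck2 (0.77), Pgm2 (0.99), Pgp (0.15) and Tigar (0.35) up, G6pc3 (-0.55), Minpp1 (-0.22) and Pgm1 (-0.40) down. The shares of all genes in that comparison were 15.2% and 18.0%, also for the lists that follow. In E16.5 females Pcx (1.00) rose and Tigar (-1.31) fell, of 14 tested, and 0 passed in the other 4 comparisons. Of 22 genes of the hexosamine, polyol, serine and glycogen branches 4 rose and 8 fell of 20 tested in E13.5 males. Gbe1 (0.34), Pgm3 (0.33), Psat1 (0.48) and Ugp2 (0.29) rose, and Gys1 (-0.48), Oga (-0.55), Ogt (-0.51), Phgdh (-0.74), Pygb (-0.37), Pygl (-0.48), Shmt1 (-0.15) and Shmt2 (-0.29) fell. Phgdh opens serine synthesis from glycolysis, and Ogt and Oga add and remove O-GlcNAc on proteins. Ogt rose in E16.5 males (0.48), Akr1b1 (-0.83), the aldose reductase, fell in E16.5 females, and Gnpnat1 (0.84) and Psat1 (0.36) rose in gonads, with adjusted p of 0.023 and 0.06 without control replicate 1. Of 15 other transporters Bsg (0.21), the chaperone of MCT carriers, and Mpc1 (0.41) rose and Mpc2 (-0.35) fell in E13.5 males, with the last 2 forming the mitochondrial pyruvate carrier, and Mpc1 (0.44) rose in E16.5 females. Among E13.5 males 11 of these 15 stayed under 1 TPM in every control library and 11 in every IUHG library, so fewer than 15 were tested. The list sizes 15, 5 and 8 in these sentences count genes listed, not genes tested. Of 5 other pyruvate dehydrogenase genes Dld rose in males at E13.5 (0.18) and E16.5 (0.43). Of 8 other pentose phosphate and ribose genes Rpe (0.35) rose and Prps1 fell by 1.10 ± 0.11 log2 units (SE, adjusted p = 9.69e-05) in E13.5 males, and the transketolase-like Tktl1 fell in E13.5 females by 2.25 ± 0.26 log2 units (SE, adjusted p = 0.00372). Members had 12 higher and 4 lower of 38 in E13.5 males.

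From E13.5 to E16.5 in control males, by the stage rule, the lists gave 8 up and 0 down of 10 other transporters, 11 up and 2 down of 19 other glycolytic enzymes, 9 up and 5 down of 21 branch genes, 6 up and 1 down of 12 HIF targets, 4 up and 4 down of 17 regulators, 3 up and 2 down of 6 other pentose phosphate genes, 1 up and 0 down of 5 other pyruvate dehydrogenase genes and 3 up and 0 down of 4 germline isozymes. In females over the same interval they gave 1 up and 2 down of 8 other transporters, 1 up and 2 down of 14 other glycolytic enzymes, 3 up and 6 down of 21 branch genes, 3 up and 1 down of 11 HIF targets, 2 up and 7 down of 16 regulators, 2 up and 0 down of 7 other pentose phosphate genes, 0 up and 0 down of 5 other pyruvate dehydrogenase genes and 2 up and 0 down of 6 germline isozymes. Beside these stood 11 up and 10 down of 39 members in males and 0 up and 16 down of 38 members in females. Of all genes 38.3% were up and 12.7% down in males, and 18.4% up and 9.78% down in females.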

How the data were processed

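Gene tables of 36 mouse libraries were analysed as deposited. For the gonads the authors trimmed reads, aligned them with HISAT2 and quantified genes with StringTie. PGC cDNA was amplified by a Smart-seq2-type method and aligned with STAR to mm39, and the submitters' processing notes also name FastQC, Trim Galore, featureCounts and DESeq2. The genome build is given differently for the gonads in the methods and the labels, so no gonad coordinates are given. TPM, FPKM and coverage (mean depth per base, a signal) are the authors' deposited values, and the authors' DESeq2 results were not used here. TPM keeps no depth, so depth in aligned bases was taken as the 90th percentile of coverage over FPKM in a library.

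Genes with a mean of at least 1 TPM in 1 compared group were tested on log2(TPM + 1) with limma 3.58.1 in R 4.3.3 (lmFit and eBayes with trend, two-sided), each comparison on its own groups, with Benjamini-Hochberg adjustment over all genes. The authors' PGC thresholds, 0.01 and 2-fold, name no adjustment, and an adjusted p was used here. The script was tested on simulated data. A symbol with several IDs was represented by its most abundant one. The members, gene lists and tests were chosen with earlier results of these data known. Values per library are given for members called under IUHG, the 2 members with the lowest p in each direction per IUHG comparison, the 3 called members with the largest change in each direction per stage or sex comparison, the 5 most abundant members, and Slc2a1, Slc2a3, Slc2a4 and Txnip. Genes of the other lists are named where they passed the threshold. Isozyme shares were compared by exact permutation tests in scipy 1.17.1. Promoter windows came from RefSeq on GRCm38.p6 and were searched on both strands. The alternatives tried were no filter, a smaller pseudocount of 0.1, FPKM, scaling of TPM by median of ratios, the replicate number as a block, all 10 PGC groups in one fit, and leaving out each library.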

Additional observations from a re-analysis of the deposited data

Results flagged for a closer look

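The response to IUHG differed between male and female PGCs, by a test of the difference itself, for 12 gene and age pairs among the members. All values are log2 differences, the change in males minus the change in females, with Benjamini-Hochberg adjusted p from limma. At E13.5 they were -1.74 for Pfkfb3 (adjusted p = 0.000474), -1.19 for Pdk1 (0.0382), -1.14 for Pgam1 (0.000471), -1.01 for Eno1 (0.00113), -0.81 for Ldhb (0.0117), -0.75 for Pdha1 (0.0267), 0.74 for Ldha (0.0120) and 0.76 for Pfkfb1 (0.0282). At E16.5 they were -1.94 for Slc16a3 (0.0475), 0.36 for Pdhb (0.0234), 0.69 for Txnip (0.0184) and 1.59 for Pdk2 (0.0314). Pfkfb3 was also called on its own in each sex, higher in females and lower in males. The group means of Slc16a3 at E16.5 ran from 0.476 to 3.61 TPM.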

How the results depend on the processing

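Counts of members called were compared with those under each alternative. Shares of all genes called under the alternatives are not given, so shifts in these counts cannot be read as particular to the members. In E13.5 female PGCs the count of 3 became 5 with FPKM, 1 with no filter on low TPM, 5 with median-of-ratios scaling and 18 with all PGC groups in one fit. In E13.5 males the count of 16 became 4 (Hk1, Pgk1, Ldha and Pdhb) with all PGC groups in one fit. In E16.5 females the count of 2 became 6 with FPKM, 1 with a pseudocount of 0.1, 0 with no filter and 15 with all PGC groups in one fit. In E16.5 males the count of 7 became 2 with no filter and 2 with all PGC groups in one fit. The gonad count of 2 became 0 with no filter, and the E16.5 interaction count of 4 became 2. With no filter more genes enter the adjustment, and in the joint fit all groups share one estimate of the spread. The causes of the other shifts were not tested. With the replicate block the gonad count became 0, that of E13.5 females 7, of E16.5 females 1 and of E16.5 males 3. The libraries share only a number, since correlations of deviations between same-numbered libraries lay between -0.0846 and 0.126 and in no comparison were all over 0.1 or every library closest to its own number.

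Leaving out 1 library gave counts of 0 to 1 in gonads, 1 to 2 at E12.5, 0 to 13 in E13.5 females, 15 to 16 in E13.5 males, 0 to 2 in E16.5 females, 0 to 5 in E16.5 males, 5 to 13 for the E13.5 interaction and 0 to 6 for that at E16.5. Stage and sex counts ranged from 14 to 16 (E12.5 to E13.5 females), 6 to 7 (E12.5 to E13.5 males), 14 to 16 (females to E16.5), 20 to 22 (males to E16.5), 13 to 16 (sex at E13.5) and 20 to 25 (sex at E16.5), and stayed within 1.5 times the reported counts under the other alternatives too. No called value changed sign in any alternative. Median-of-ratios scaling moved the median of all genes from 0.14 to -0.01 in E13.5 females, from 0.27 to 0.00 and 0.31 to 0.07 for females across stages, from 0.62 to 0.26 for males to E16.5, and from -0.28 to 0.03 and 0.11 to 0.39 for sex at E13.5 and E16.5, so a difference near these values depends on the scaling.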
